A study of Arabidopsis thaliana with 4 samples.

Results

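The 9 genes described here encode MADS-domain transcription factors of flowering time in Arabidopsis thaliana, and their transcript levels are compared across flowers, siliques (the seed pods), roots and leaves. They are FLC (AT5G10140), its relatives MAF1 (AT1G77080, also called FLM), MAF2 (AT5G65050), MAF3 (AT5G65060), MAF4 (AT5G65070) and MAF5 (AT5G65080), and SVP (AT2G22540), SOC1 (AT2G45660) and AGL24 (AT4G24540). They were chosen by name and not by a rule on their values, but with earlier results of these data known. The 9 genes take 9 of the 34288 loci in the authors' gene table. Flowers and siliques came from plants aged 5 weeks grown in soil, and roots and leaves from plants aged 2 weeks grown on MS agar plates, where the leaf sample was the aerial part of the plant. All 4 groups were wild-type plants of the accession Col-0, kept in long days at 22 °C, with no treatment or mutant. Each organ gave 1 RNA sequencing library, so no difference here has a replicate check, and no test across organs was made. The error given is the interval that the authors deposited around each FPKM (a fragment count scaled to transcript length and to the mapped fragments of the library), and the sources used here do not give its confidence level.

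FLC, SVP and the MAF genes encode repressors that bind FT, which encodes the mobile florigen, and SOC1, which promotes flowering, and so delay the change from making leaves to making flowers. Long cold silences FLC through Polycomb proteins, the autonomous pathway keeps it low, and FRI raises it, although Col-0 carries a FRI allele that does not work. SOC1 and AGL24 act together in the shoot apex to switch on LFY, and AP1 later represses SVP, SOC1 and AGL24 in young flowers.

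The MADS domain at the start of each protein binds DNA, and the coding sequence behind its first residues is shown because it separates the FLC clade from SVP, SOC1 and AGL24. The 90 bases below start at the ATG in the RefSeq annotation of TAIR10.1 and run 5′ to 3′ on the gene's strand, and capitals mark bases that differ from FLC at the same position. They lie in the first coding exon of each gene, and for MAF5 they start at the ATG that follows 21 annotated coding bases.
FLC: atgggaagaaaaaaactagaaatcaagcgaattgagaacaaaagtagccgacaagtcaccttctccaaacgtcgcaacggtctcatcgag
MAF1: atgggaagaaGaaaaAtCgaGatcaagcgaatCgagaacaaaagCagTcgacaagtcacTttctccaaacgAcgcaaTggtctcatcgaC
MAF2: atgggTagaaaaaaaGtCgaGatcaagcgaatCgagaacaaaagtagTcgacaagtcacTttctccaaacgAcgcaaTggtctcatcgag
MAF3: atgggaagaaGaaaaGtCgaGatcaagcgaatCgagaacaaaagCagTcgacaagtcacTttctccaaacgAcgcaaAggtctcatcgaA
MAF4: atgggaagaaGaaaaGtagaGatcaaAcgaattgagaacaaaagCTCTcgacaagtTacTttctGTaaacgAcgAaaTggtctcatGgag
MAF5: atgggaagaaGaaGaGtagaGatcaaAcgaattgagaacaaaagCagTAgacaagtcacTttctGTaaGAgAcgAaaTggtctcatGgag
SVP: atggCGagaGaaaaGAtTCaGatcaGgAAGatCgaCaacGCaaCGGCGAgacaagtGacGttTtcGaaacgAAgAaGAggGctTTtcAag
SOC1: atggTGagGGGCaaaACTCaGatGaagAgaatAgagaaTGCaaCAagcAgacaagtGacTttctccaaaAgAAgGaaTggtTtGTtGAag
AGL24: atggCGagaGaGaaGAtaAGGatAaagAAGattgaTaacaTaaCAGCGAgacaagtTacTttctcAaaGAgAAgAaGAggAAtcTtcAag
The stretches lie at chr5:3179250-3179339 (minus strand, FLC), chr1:28955679-28955768 (plus, MAF1), chr5:25982415-25982504 (plus, MAF2), chr5:25987527-25987616 (plus, MAF3), chr5:25992310-25992399 (plus, MAF4), chr5:25997671-25997760 (plus, MAF5), chr2:9580417-9580506 (plus, SVP), chr2:18810104-18810193 (minus, SOC1) and chr4:12673556-12673645 (minus, AGL24). Of the 90 bases, 81 in MAF2, 79 in MAF1 and in MAF3, 74 in MAF4 and 73 in MAF5 were the same as in FLC, against 58 in SOC1 and 55 in SVP and in AGL24. Over whole coding sequences MAF2 and MAF3 were identical at 93.6% of aligned bases, MAF1 and MAF3 at 89.7%, MAF4 and MAF5 at 84.6%, SVP and AGL24 at 68.5%, and FLC and MAF1 at 76.5%. FLC shared 59.4% of aligned bases with SVP and 55.4% with SOC1.

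Such likeness bears on how reads are shared out between these genes. Windows of 50 coding bases that also occur in another of the 9 genes made up 4.61% of the windows of MAF3, 2.40% of those of MAF2 and 1.93% of those of MAF1, and 0 in the other 6. The longest run shared by MAF1 and MAF3 is 61 bases of the MADS box, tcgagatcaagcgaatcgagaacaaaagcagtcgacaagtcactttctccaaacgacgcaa, and MAF2 and MAF3 share one of 59 bases. The levels of MAF1, MAF2 and MAF3 are uncertain to the extent that the authors' counting split such reads between them.

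MAF2 had no row of its own. It was reported together with MAF4 in a joined row at chr5:25980207-25996150, an interval that the table also gives for MAF3, so MAF2 and MAF4 cannot be told apart there. MAF4 had a second row at the same interval, below 1 FPKM in each organ: 0.263 FPKM in flowers, 0.178 in siliques, 0.292 in roots and 0.0831 in leaves. That row stands among 3688 chromosome 5 rows of which 99.7% of the single-gene rows with a known strand are annotated on the minus strand, while MAF4 is annotated on the plus strand, as are MAF2, MAF3 and MAF5. It was not compared, which leaves 8 of the 9 rows. FLC lies at chr5:3173478-3179512 and is overlapped along its whole annotated length of 6067 bases by the antisense long noncoding RNA AT5G01675 at chr5:3173371-3179600 on the plus strand of TAIR10.1. The library kit does not mark strand, so the strand of a read does not tell FLC from that RNA. The overlap is one of whole gene spans, and overlap of their exons was not examined.

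The sources used here give no read totals. From loci taken to hold 1 fragment, an FPKM of 1 stood for about 158 fragments per kilobase in flowers, 152 in siliques, 160 in roots and 159 in leaves. By this estimate, which could not be checked against read totals, depth differed little. Marker genes were summed to check the organ labels. Summed FPKM of 5 flower markers was 637 in flowers, 268 in siliques, 1.23 in roots and 5.55 in leaves, and AP3 and SEP3 were high in siliques as well as in flowers. The 5 silique markers summed to 14.1 FPKM in flowers and 709 in siliques, the 5 root markers to 18.1 in flowers and 537 in roots, with 1.29 or less in the other organs. The 5 leaf markers, genes of photosynthetic tissue, summed to 2425 FPKM in flowers, 5756 in siliques, 25.3 in roots and 7613 in leaves. The 4 shoot meristem markers summed to 89.4 FPKM in flowers, 25.5 in siliques, 8.25 in roots and 6.46 in leaves, and 2 of them were listed at 0 in roots. Nearly all of the root sum was KNAT1, at 8.23 FPKM.

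FLC, the repressor silenced by winter cold, was low in all 4 organs. Its level was 3.77 FPKM in flowers (interval 0 to 9.60), 0.672 in siliques (0 to 1.98), 2.61 in roots (0 to 6.80) and 2.64 in leaves (0 to 7.49). Roots and leaves were nearly level and siliques lowest, with the highest 5.60 times the lowest. The order was flowers, leaves, roots, siliques as deposited. After median-of-ratios scaling leaves and flowers were level, with a difference in log2(FPKM + 1) of -0.004 in flowers over leaves. By the same unchecked estimate, the deposited levels stand for about 592 fragments in flowers, 102 in siliques, 417 in roots and 418 in leaves. The intervals are wider than counting error alone would give at such numbers, so their overlap does not mean low counts. FLC stood near the middle of the table, above 50.7% of usable loci in flowers, 40.3% in siliques, 50.1% in roots and 54.1% in leaves.

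MAF1, the FLC-like partner of SVP in the response to ambient temperature, had the highest FPKM of the clade in each organ, with intervals that overlap those of the joined row. At chr1:28955493-28960096 it had 74.5 FPKM in flowers (interval 21.8 to 127), 59.3 in siliques (13.4 to 105), 64.0 in roots (15.7 to 112) and 53.6 in leaves (12.0 to 95.2). The highest level was 1.39 times the lowest, and MAF1 stood above 93.6% of usable loci or more in each organ. The organ with the highest MAF1 level was flowers as deposited and leaves after scaling, where flowers over leaves stood at only -0.04 in log2(FPKM + 1).

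MAF2, a repressor that delays flowering after short spells of cold, and MAF4, a close relative, shared a joined row with 58.1 FPKM in flowers (interval 16.7 to 99.4), 50.3 in siliques (11.3 to 89.2), 59.4 in roots (17.7 to 101) and 42.0 in leaves (12.4 to 71.7). The spread was again small, 1.41 times, with roots highest as deposited. After scaling siliques were highest by only 0.005 in log2(FPKM + 1) over roots. MAF3, another repressor of the array, had 13.0 FPKM in flowers (interval 0 to 27.1), 12.4 in siliques (0 to 27.1), 13.7 in roots (0 to 31.8) and 14.1 in leaves (0 to 29.1). As deposited, its highest level was 1.14 times its lowest, the flattest profile of the 8 rows. After median-of-ratios scaling it was not the flattest. Its difference in log2(FPKM + 1) was then -0.59 in flowers over leaves and -0.49 in roots over leaves. The joined row stood at -0.05 and 0.01 in these pairs.

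MAF5, which lies at the end of the array at chr5:25997504-26002465 and, unlike FLC, is known to be raised by long cold, was low and had its highest level in siliques. Its level was 1.46 FPKM in flowers (interval 0 to 4.73), 4.19 in siliques (0 to 11.8), 1.05 in roots (0 to 3.51) and 0.814 in leaves (0 to 2.78). These levels correspond to about 182 fragments in flowers, 504 in siliques, 134 in roots and 102 in leaves. Siliques, the organ with the lowest FLC level, thus had the highest MAF5 level, 5.15 times that in leaves.

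SVP, the repressor that binds FT and SOC1 together with FLC or MAF1, was highest in leaves, then roots, flowers and siliques. At chr2:9579874-9583893 it had 8.43 FPKM in flowers (interval 0 to 21.0), 2.09 in siliques (0 to 7.52), 27.8 in roots (0 to 56.6) and 69.7 in leaves (4.28 to 135). Leaves stood 33.4 times above siliques, and both organs of the younger plants stood above both organs of the older ones. SVP exceeded 61.0% of usable loci in flowers, 48.3% in siliques, 84.6% in roots and 95.2% in leaves.

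SOC1, which promotes flowering and is repressed by FLC and SVP, was also highest in leaves, but flowers came second. At chr2:18807521-18811047 it had 34.4 FPKM in flowers (interval 0.0758 to 68.8), 4.26 in siliques (0 to 13.0), 12.9 in roots (0 to 29.2) and 61.1 in leaves (0 to 123). The level in leaves was 14.3 times that in siliques. AGL24, the SVP-like gene that promotes flowering with SOC1, was found mainly in leaves and flowers. At chr4:12670965-12674077 it had 6.13 FPKM in flowers (interval 0 to 16.0), 0.290 in siliques (0 to 0.670), 0.224 in roots (0 to 0.688) and 9.86 in leaves (0 to 22.6). These stand for about 1118 fragments in flowers, 50.9 in siliques, 41.6 in roots and 1812 in leaves, and the highest level was 43.9 times the lowest, the widest range of the 8 rows.

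For each of the 8 rows, neighbours in the order of organs had overlapping intervals, and no pair of organs had separate intervals. FLC, MAF3, MAF5 and AGL24 had a lower end of 0 in each organ, so separate intervals were not possible for them. In bulk organs, fewer cells of a type and less RNA per cell cannot be told apart for any of these genes. Of the 8 rows, 4 were highest in leaves (MAF3, SVP, SOC1, AGL24), 2 in flowers (FLC, MAF1), 1 in roots (the joined row) and 1 in siliques (MAF5). After scaling 5 of the 8 had the same highest organ, and FLC, MAF1 and the joined row, which changed, had nearly level top organs.

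**Figure D1:**
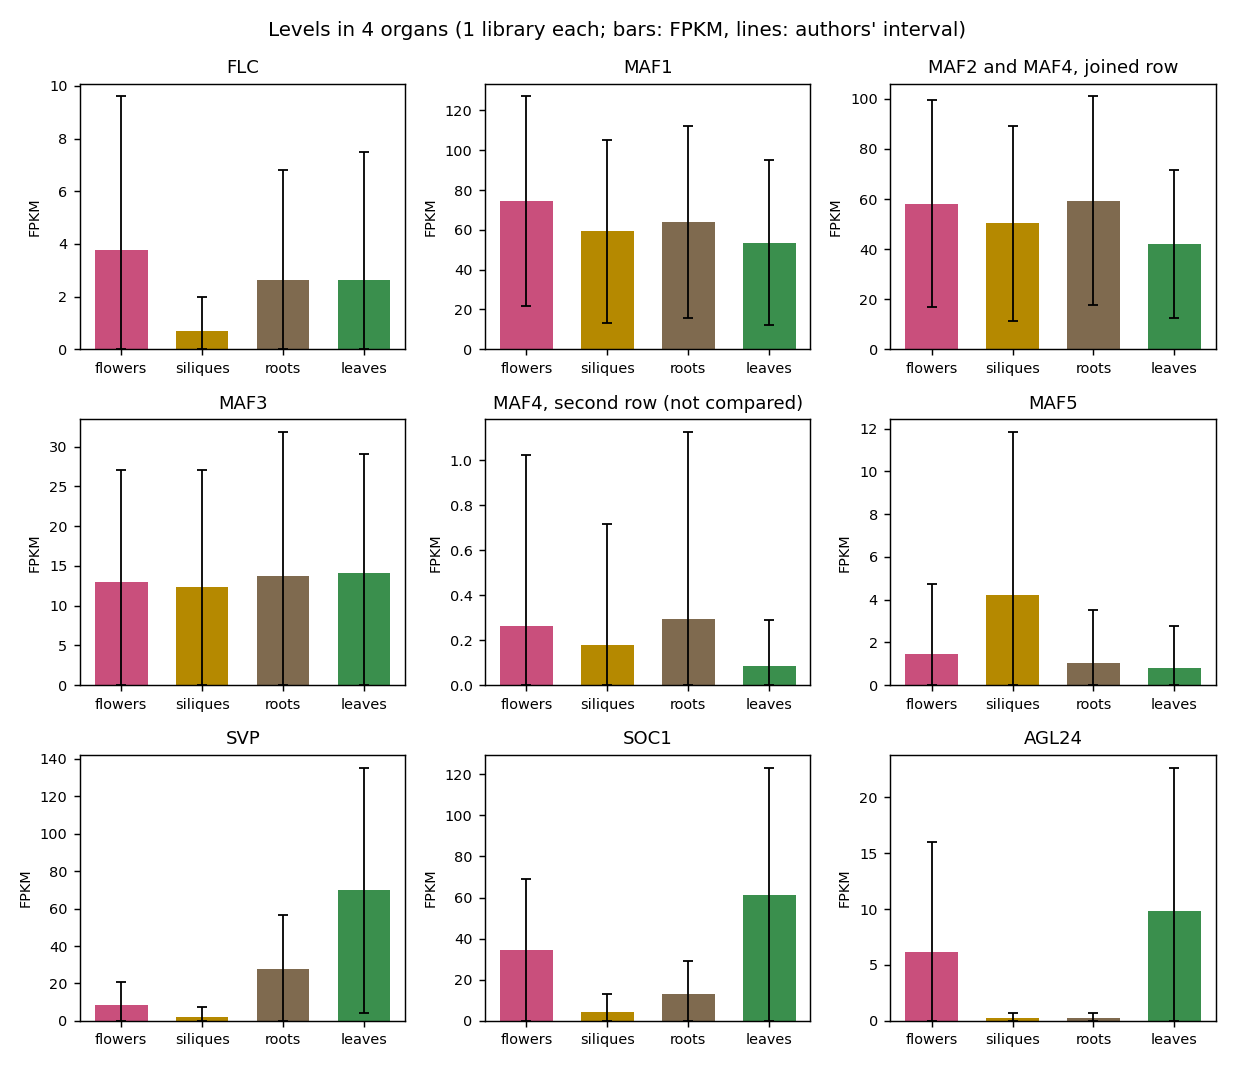
Levels of the 9 rows in flowers, siliques, roots and leaves, in FPKM on a separate linear axis for each row, with 1 library per organ. Bars are the deposited FPKM and lines the authors' interval; MAF1, the joined row and MAF3 are close to level, SVP, SOC1 and AGL24 peak in leaves, and MAF5 peaks at 4.19 FPKM in siliques.

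The evenness of each profile was measured with the tau index on log2(FPKM + 1), which is 0 for equal levels in the 4 organs and 1 for a locus found in a single organ. MAF3 had a tau of 0.0268, the joined row 0.0427 and MAF1 0.0539. These 3 were among the most even loci of the table, with 0.443%, 2.0% and 4.20% of the 23477 compared loci below them. These values are of the levels as deposited, and scaling made MAF3 less even, as given above. FLC (0.340) and SOC1 (0.366) lay above the median of compared loci, 0.238. SVP had 0.473, MAF5 0.551 and AGL24 0.662, with 70.2%, 74.0% and 78.6% of loci below them. Tau on this scale also depends on level, so its order is not that of the fold ranges. MAF5, a low gene with a 5.15-fold range, had a higher tau than SVP (33.4-fold) and SOC1 (14.3-fold). The pair SVP and AGL24, close in sequence, thus both had uneven profiles but different ones, since SVP was present in roots at 27.8 FPKM and AGL24 at 0.224.

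**Figure D2:**
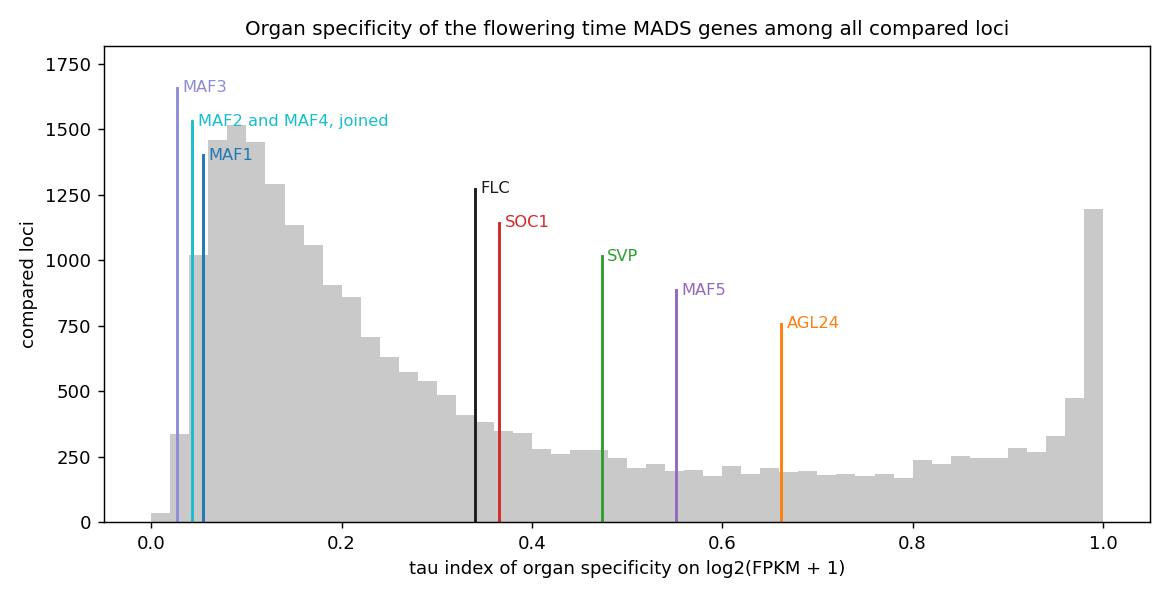
Organ specificity of the 8 compared rows (coloured lines, heights staggered for legibility) over the histogram of the tau index of the 23477 compared loci (grey, number of loci per bin). With levels as deposited, MAF3, the joined row and MAF1 lie at the even end, and AGL24 reaches 0.662.

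In each organ MAF1 and the joined row made up most of the FLC clade, while the shares of its low members FLC and MAF5 varied more between organs. The summed level of FLC, MAF1, the joined row, MAF3 and MAF5 was 151 FPKM in flowers, 127 in siliques, 141 in roots and 113 in leaves. MAF1 made up 49.4% of that sum in flowers, 46.8% in siliques, 45.4% in roots and 47.4% in leaves, and the joined row 38.5% in flowers, 39.6% in siliques, 42.2% in roots and 37.1% in leaves. MAF3 made up 8.61% in flowers, 9.78% in siliques, 9.75% in roots and 12.4% in leaves. FLC itself made up 2.50% in flowers, 0.530% in siliques, 1.86% in roots and 2.33% in leaves, and MAF5 0.971% in flowers, 3.31% in siliques, 0.749% in roots and 0.720% in leaves. Siliques thus had the smallest share of FLC and the largest share of MAF5. MAF1 was thus 19.8 times FLC in flowers, 88.2 times in siliques, 24.5 times in roots and 20.3 times in leaves.

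The balance between SVP and the other genes also varied between organs. MAF1 over SVP, the ratio of the 2 partner genes in FPKM, was 8.83 in flowers, 28.4 in siliques, 2.30 in roots and 0.768 in leaves. Leaves were the organ in which SVP exceeded MAF1. SVP over SOC1, repressor over target, was 0.245 in flowers, 0.490 in siliques, 2.16 in roots and 1.14 in leaves, so SOC1 exceeded SVP in flowers and siliques and SVP exceeded SOC1 in roots and leaves. SOC1 over AGL24 was 5.61 in flowers, 14.7 in siliques, 57.3 in roots and 6.20 in leaves. These ratios are within a library, so scaling between libraries does not touch them. The intervals of SVP and SOC1 overlap in each organ, and those of SVP and MAF1 overlap in roots and leaves. Which gene of a pair is higher is thus uncertain there.

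**Figure D3:**
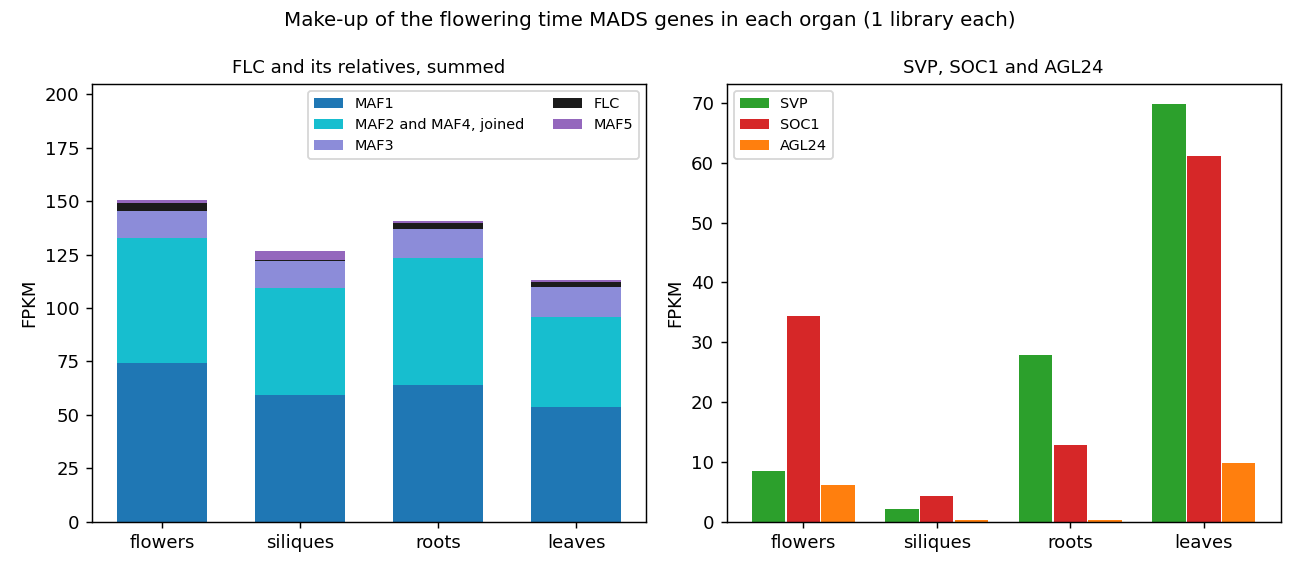
Left, stacked FPKM of the FLC clade in each organ, and right, FPKM of SVP, SOC1 and AGL24 side by side, with 1 library per organ and both axes starting at 0. The clade sums to 113 to 151 FPKM with MAF1 and the joined row as the main parts, whereas SVP spans 2.09 to 69.7 FPKM.

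The organs were then compared in pairs. Differences were taken on log2(FPKM + 1), where 1 is 2-fold, and a locus was compared if it had at least 1 FPKM in some organ. The pairs share libraries, so their counts are not independent of each other. Flowers with siliques and roots with leaves are each matched for age and medium. In the other 4 pairs organ, age and medium cannot be told apart.

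In flowers over siliques, SOC1, AGL24, SVP and FLC were at least 2-fold higher in flowers and MAF5 was at least 2-fold lower. The log2 differences were 2.75 for SOC1, 2.47 for AGL24, 1.61 for SVP, 1.51 for FLC and -1.08 for MAF5. In FPKM, flowers exceeded siliques 8.09-fold for SOC1, 21.2-fold for AGL24, 4.04-fold for SVP and 5.60-fold for FLC, and siliques exceeded flowers 2.86-fold for MAF5. Thus 4 of 8 rows were higher, beside 13.5% of all compared loci, and 1 of 8 was lower, beside 8.42%. At 4-fold the count was 2 of 8, beside 8.57% of loci, and with separate intervals 0 of 8, beside 0.392%. The median of all loci was itself 0.19, and relative to it SOC1 stood at 2.56, AGL24 at 2.28, SVP at 1.42, FLC at 1.32 and MAF5 at -1.26. Of all compared loci, 2.63% were as high as SOC1 or higher, 3.31% as high as AGL24, 7.10% as high as SVP and 7.82% as high as FLC, and 7.81% were as low as MAF5 or lower. MAF1 (0.32), the joined row (0.21) and MAF3 (0.06) were close to the median of all loci. Of all loci past 2-fold in this pair, 61.6% were higher in flowers as deposited and 50.5% after scaling. The 3 compared shoot meristem markers, with STM at 41.3 FPKM in flowers and 10.7 in siliques, were also higher in flowers. CLV3, the remaining marker, was not, at 0.0263 in flowers and 0.0275 in siliques. The part of meristem tissue in these differences was not tested.

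In roots over leaves, SVP, SOC1 and AGL24, the 3 genes outside the FLC clade, were at least 2-fold lower in roots, and no row was higher. The log2 differences were -3.15 for AGL24, -2.16 for SOC1 and -1.30 for SVP. In FPKM, leaves exceeded roots 43.9-fold for AGL24, 4.75-fold for SOC1 and 2.51-fold for SVP. Thus 3 of 8 rows were lower, beside 13.4% of compared loci, and 0 were higher, beside 23.6%. At 4-fold there were 2, beside 16.5% of loci, and with separate intervals 0, beside 1.41%. The median of all loci was 0.34, relative to which AGL24 stood at -3.49, SOC1 at -2.51 and SVP at -1.64. FLC (-0.01), MAF1 (0.25), the joined row (0.49), MAF3 (-0.03) and MAF5 (0.18) were all under 2-fold. Of loci past 2-fold, 63.7% had the higher level in roots as deposited, and 47.3% did after scaling.

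In flowers over leaves, SVP was at least 2-fold lower in flowers, with a log2 difference of -2.91, an FPKM 8.27-fold higher in leaves and 0.984% of compared loci as low or lower. It was 1 of 8 rows lower, beside 7.79% of loci, and 0 were higher, beside 21.6%. At 4-fold the count was 1, beside 10.5%, and with separate intervals 0, beside 0.737%. SOC1 (-0.81) and AGL24 (-0.61) were also lower in flowers but under 2-fold as deposited. After median-of-ratios scaling they were past it, at -1.32 and -1.07. The median of all loci was 0.38 as deposited, relative to which SVP stood at -3.29, SOC1 at -1.19 and AGL24 at -0.99. Of loci past 2-fold, 73.5% were higher in flowers as deposited and 52.8% after scaling.

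In flowers over roots, AGL24 and SOC1 were at least 2-fold higher in flowers and SVP was at least 2-fold lower. Their log2 differences were 2.54, 1.35 and -1.61, and the median of all loci was 0.05. The repressor SVP and its target SOC1 thus stood on opposite sides in this pair, whereas in flowers over siliques both were higher in flowers and in roots over leaves both were lower in roots. Of the 8 rows 2 were higher, beside 23.8% of loci, and 1 was lower, beside 16.5%. At 4-fold 1 row was past the threshold, beside 20.4%, and with separate intervals 0, beside 1.67%. The 5 rows of the FLC clade lay between -0.08 and 0.40.

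In siliques over leaves, SVP, SOC1, AGL24 and FLC were at least 2-fold lower in siliques and MAF5 was at least 2-fold higher. For SVP, SOC1 and MAF5 this was the widest difference of the 6 pairs, whereas AGL24 differed more in roots over leaves and FLC in flowers over siliques. SVP stood at a log2 difference of -4.52, SOC1 stood at -3.56, AGL24 at -3.07 and FLC at -1.12, while MAF5 was higher in siliques at 1.52. In FPKM, leaves exceeded siliques 33.4-fold for SVP, 14.3-fold for SOC1, 34.1-fold for AGL24 and 3.93-fold for FLC. SVP, SOC1 and AGL24 were near the low end of the whole table, with 0.247%, 0.647% and 0.971% of compared loci as low or lower. Of the 8 rows 4 were lower, beside 8.4% of loci, and 1 was higher, beside 16.9%. At 4-fold the count was 3, beside 9.84%, and with separate intervals 0, beside 0.575%. The median of all loci was 0.12, relative to which SVP stood at -4.64 and MAF5 at 1.39. Of loci past 2-fold, 66.8% were higher in siliques as deposited and 55.6% after scaling.

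In siliques over roots, SVP (-3.22), SOC1 (-1.40) and FLC (-1.11) were at least 2-fold lower in siliques and MAF5 (1.34) was at least 2-fold higher. AGL24, low in both organs, stood at 0.07. Of the 8 rows 3 were lower, beside 19.5% of loci, and 1 was higher, beside 19.8%. At 4-fold 1 row was past the threshold, beside 19.7%, and with separate intervals 0, beside 1.59%. The median of all loci was -0.14, and after scaling FLC stood at -0.96 and was no longer past 2-fold.

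**Figure D4:**
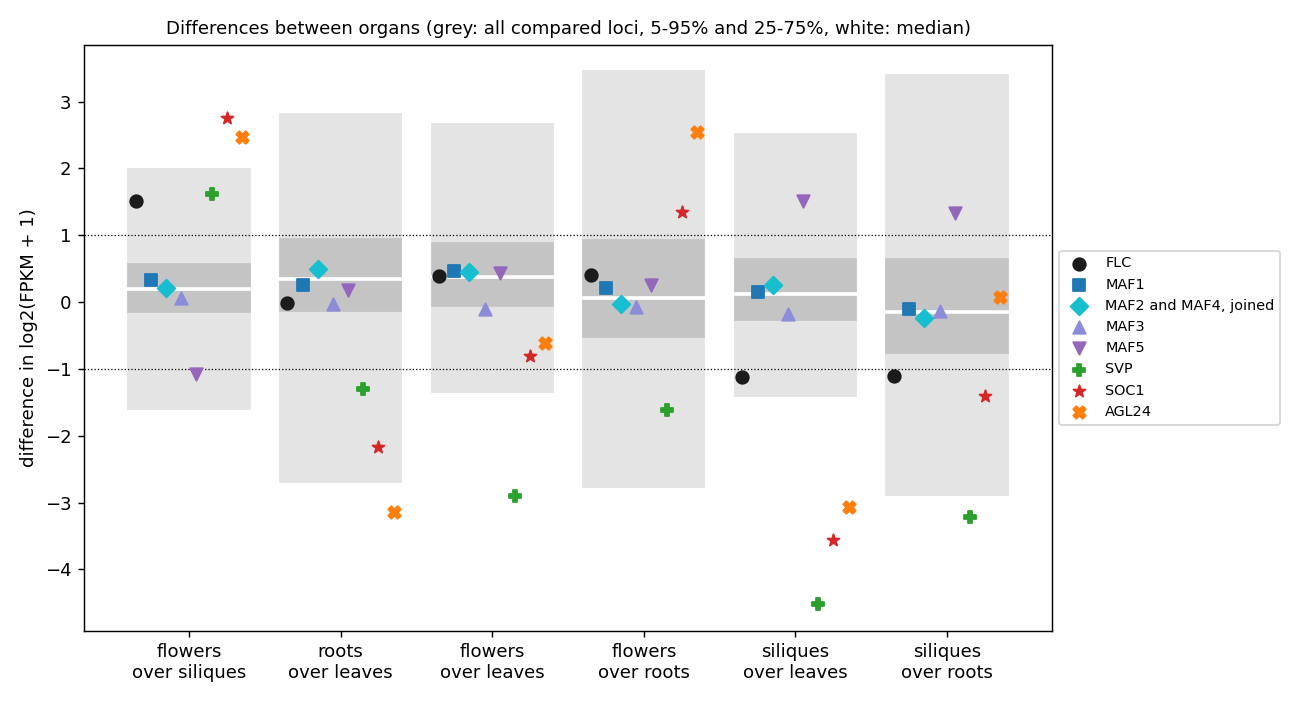
Differences between organs in log2(FPKM + 1) for the 8 compared rows (symbols) in the 6 pairs of organs, over the 5% to 95% and 25% to 75% ranges (light and dark grey) and the median (white line) of the 23477 compared loci. Dotted lines mark 2-fold; SVP, SOC1 and AGL24 fall below the light grey range in siliques over leaves, and MAF1, the joined row and MAF3 stay within 2-fold in each pair.

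The genes that act on these 9, and those they act on, were followed in 8 lists with 82 entries, of which 76 could be compared. These lists, too, were chosen with earlier results of these data known. Of the rest, 3 were joined with another gene (ELF7, ATX1, FPA) and 3 were under 1 FPKM in each organ (TSF, AGL71, AGL72). Their counts can be read against those of all compared loci, of which 13.5% were higher and 8.42% lower in flowers over siliques, and 23.6% higher and 13.4% lower in roots over leaves. Regulators of FLC came first. Of 16 genes of the FRI pathway and of activating chromatin at FLC, 0 were past 2-fold in flowers over siliques or in roots over leaves, with median log2 differences of 0.33 and 0.41 beside 0.19 and 0.34 for all loci. In the other 4 pairs 1 of the 16 was past 2-fold in siliques over roots, SEF, lower in siliques at -1.01 and named after its value was seen, and 0 in the other 3. FRI itself had 4.24 FPKM in flowers, 3.13 in siliques, 5.11 in roots and 3.58 in leaves. Of 7 genes of the autonomous pathway, 0 were past 2-fold in both pairs as well (medians 0.37 and 0.28). Of 9 genes of vernalization and Polycomb silencing, 1 was higher in flowers than in siliques (median 0.42) and 2 were higher in roots than in leaves (median 0.53), with 0 lower in either pair. The first was VIN3, the cold-induced gene that starts FLC silencing, at 2.31 FPKM in flowers, 0.328 in siliques, 0.0258 in roots and 0.00461 in leaves, and the others were VRN1 and CLF, all named after their values were seen.

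FT, the florigen gene that FLC and SVP repress, had 6.80 FPKM in flowers, 154 in siliques, 0.00600 in roots and 1.01 in leaves. Siliques were thus the organ with the highest FT and the lowest SVP, SOC1 and FLC levels. The lowest FT level was in roots, and not in leaves, where SVP was highest, or in flowers, where FLC was highest. A link between these levels was not tested. In the photoperiod list 2 of 11 genes were at least 2-fold higher and 4 lower in flowers over siliques (median 0.42), and 3 were higher and 3 lower in roots over leaves (median 0.09). The clock-regulated genes FKF1 and CDF1 were among them. FKF1 had 0.425 FPKM in flowers, 8.86 in siliques, 25.7 in roots and 6.28 in leaves, and CDF1 had 7.13 in flowers, 16.1 in siliques, 1.65 in roots and 26.1 in leaves. FDP, a relative of the FT partner FD, was higher in flowers at 6.60 FPKM, against 0.373 in siliques, and TFL1, the FT relative that represses flowering, was higher in roots at 6.71 FPKM, against 0.453 in leaves. The sources used here do not give the hour of harvest.

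The other repressors of FT, the AP2-like and TEM genes, had 0 of 8 past 2-fold in flowers over siliques (median 0.02). In roots over leaves 2 were higher and 4 lower (median -0.55). SNZ was the lowest of them there, at 0.128 FPKM in roots, against 17.3 in leaves (log2 difference -4.02). In siliques over leaves 2 were higher and 5 lower (median -2.78, beside 0.12 for all loci, of which 16.9% were higher and 8.4% lower), and in the same pair SVP stood at -4.52.

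The SPL genes, age-pathway activators of SOC1 and of floral genes, had 4 of 5 at least 2-fold higher in flowers than in siliques and 0 lower (median 2.03). SPL5 had 35.3 FPKM in flowers and 2.49 in siliques, SPL9 had 47.7 in flowers and 7.03 in siliques, and SPL15 had 12.0 in flowers and 2.20 in siliques. In roots over leaves 3 of 5 were lower and 0 higher (median -2.55), among them SPL3 with 0.393 FPKM in roots and 10.8 in leaves, SPL4 with 0.0871 in roots and 7.71 in leaves, and SPL9 with 0.301 in roots and 6.62 in leaves. SOC1 and AGL24 had the same directions in both of these pairs, but not in each of the others. In flowers over leaves 5 of 5 SPL genes were higher (median 2.68), beside 21.6% of all loci, where SOC1 stood at -0.81 and AGL24 at -0.61. In siliques over roots 4 of 5 were higher and 0 lower (median 2.63), beside 19.8% of all loci higher, where SOC1 stood at -1.40 and AGL24 at 0.07.

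Floral meristem and organ identity genes, which act after SOC1 and AGL24, had 5 of 11 higher in flowers than in siliques and 0 lower (median 0.59). PI had 241 FPKM in flowers and 2.89 in siliques, AP1 had 77.8 in flowers and 1.82 in siliques, and CAL had 7.50 in flowers and 0.350 in siliques. In roots over leaves 0 were higher and 2 lower (median -0.09). These were SEP3, listed at 0 in roots and at 4.89 FPKM in leaves, and SEP4 with 0.488 in roots and 7.20 in leaves. AP1, the repressor of SVP, SOC1 and AGL24 in young flowers, stood at 0.0539 FPKM in leaves, where the 3 had their highest levels. In roots AP1 was at 0.00832 FPKM, and AGL24 had its lowest level there. SOC1 and AGL24 were second highest in flowers, where AP1 had its highest level. A link between AP1 and these levels was not tested.

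Among 9 other compared MADS genes of flowering time, 5 were higher in roots than in leaves and 0 lower (median 1.30, beside 0.34 for all loci), whereas SVP, SOC1 and AGL24 were lower in roots. XAL1, a promoter of flowering that also acts in root growth, had 24.2 FPKM in roots and 0.239 in leaves, and AGL17, another promoter of flowering, had 11.1 in roots and 0.0119 in leaves. The SOC1 relatives stood on the same side, AGL14 with 14.9 FPKM in roots and 0.189 in leaves and AGL42 with 15.9 in roots and 0.403 in leaves. SOC1 thus went the other way from its close relatives AGL14 and AGL42 in this pair, at 12.9 FPKM in roots and 61.1 in leaves. In flowers over siliques 1 of the 9 was higher and 0 lower (median 0.09).

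**Figure D5:**
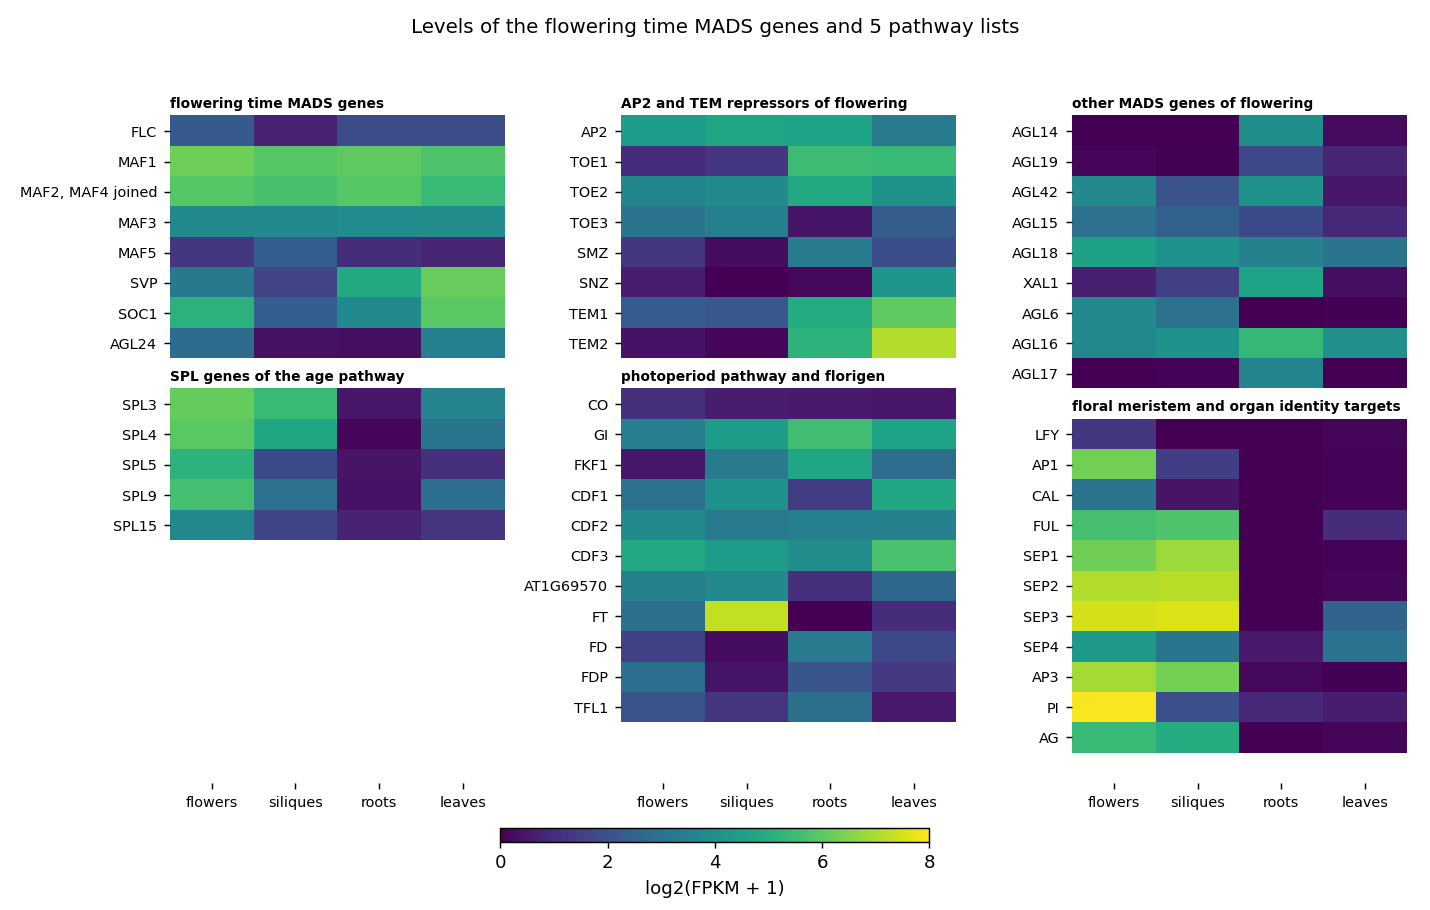
Levels of the 8 compared rows and of the compared genes of 5 of the 8 pathway lists, as log2(FPKM + 1) by colour, in flowers, siliques, roots and leaves with 1 library each. SVP is brightest in leaves, FT is brightest in siliques at 154 FPKM, the SPL and floral genes are brightest in flowers or siliques, and AGL14, AGL17 and XAL1 in roots.

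The loci most like FLC, SVP and SOC1 were those with the smallest root mean square distance between profiles of log2(FPKM + 1), each centred on its mean over the 4 organs. For FLC they were AT2G07180 (0.0611), AT1G30600 (0.0644) and KINESIN-12B (0.0706). For SVP they were EFE (0.313), with 18.7 FPKM in flowers, 7.16 in siliques, 43.6 in roots and 184 in leaves, AT1G54740 (0.386) and NIA1 (0.403), which encodes a nitrate reductase. For SOC1 they were AT5G01740 (0.272), AT1G35510 (0.310) and AT3G56060 (0.315). The distances for SVP and SOC1 were larger than those for FLC. The profiles were centred but not scaled to their range, and the range of FLC was narrower. Its widest difference between organs in log2(FPKM + 1) was 1.51, in flowers over siliques. The widest was -4.52 for SVP and -3.56 for SOC1, both in siliques over leaves. The distances therefore cannot show whether loci tracked FLC more closely than SVP or SOC1.

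The next single-gene loci beside these genes had profiles of their own. Rows of several genes or of none were passed over, so these loci need not be the adjacent genes. AT5G10130, 950 bases from FLC, had 0.00655 FPKM in flowers, 0.0207 in siliques, 40.0 in roots and 0.0329 in leaves, and AT5G10150 on the other side had 20.3 in flowers, 4.34 in siliques, 0.359 in roots and 18.3 in leaves. AGL6, a MADS gene 999 bases from SOC1, had 12.8 FPKM in flowers, 6.90 in siliques, 0.0133 in roots and 0.0373 in leaves, whereas SOC1 had 12.9 in roots and 61.1 in leaves. AT2G45670 on the other side had 38.2 in flowers, 34.4 in siliques, 79.2 in roots and 59.7 in leaves. AT1G77090, 291 bases from MAF1, had 34.2 FPKM in flowers, 37.3 in siliques, 1.82 in roots and 58.2 in leaves, beside a nearly level MAF1. AT1G77020, 8462 bases away on the other side, had 7.12 in flowers, 4.72 in siliques, 12.2 in roots and 5.20 in leaves. BST1, 1552 bases from MAF5, had 2.82 FPKM in flowers, 0.320 in siliques, 3.78 in roots and 0.191 in leaves, and so was low in siliques, where MAF5 was highest. AT5G65040, 1790 bases before the joined row, had 5.99 FPKM in flowers, 7.66 in siliques, 14.4 in roots and 2.62 in leaves. The neighbours of AGL24 were nearly level, with AT4G24530 at 10.2 FPKM in flowers, 9.74 in siliques, 8.02 in roots and 6.77 in leaves and AT4G24550 at 38.7 in flowers, 44.5 in siliques, 48.5 in roots and 34.2 in leaves. Of the neighbours of SVP, AT2G22530 was nearly level at 8.10 FPKM in flowers, 6.12 in siliques, 7.64 in roots and 6.30 in leaves, and NET2D had 5.37 in flowers, 3.33 in siliques, 5.57 in roots and 0.802 in leaves, the organ in which SVP was highest.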

How the data were processed

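RNA was measured in 1 library each of flowers, siliques, roots and leaves. Per the labels' protocols, libraries were made from DNase-treated total RNA with a TruSeq RNA v2 kit and read on an Illumina HiSeq. Per the submitters' processing notes, TopHat and Cufflinks were used with the TAIR10 build; the sources used here give no versions. The deposited table gives, per the file headers, an FPKM, the ends of an interval and a status for each locus in each library. FPKM is scaled to transcript length and library total by the authors, so a few very abundant transcripts can shift the rest.

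Of 34288 loci, 34071 had a usable status in all 4 libraries, and 23477 of these reached 1 FPKM in some organ and were compared. Differences are on log2(FPKM + 1), which understates those of low genes. With 1 library per organ, no p-value is given. Fragment numbers were estimated by taking loci whose interval ends at 3 times their FPKM to hold 1 fragment. The upper end also passed 3 times the FPKM for SVP in siliques (2.09 FPKM, upper end 7.52, about 488 fragments). The fragment numbers are therefore rough, and the intervals hold more than counting error. Table starts count from 0 (10327 nuclear rows matched the reference start after adding 1, and 173 as written), so 1 was added. Of 32115 single-gene rows, 98.3% overlapped the same code in TAIR10.1, from which sequences, strands and names come, and 80 of 82 list codes carried the list's symbol there. For 4 entries with several rows the one with the highest mean FPKM was taken, a choice made after seeing the data.

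Members and lists were chosen with earlier results of these data known. Pathway genes are named where they differ by at least 2 on the log2 scale in a matched pair, up to 4 per list and pair, besides genes described as chosen with their values known, the 3 loci most like FLC, SVP and SOC1, and the next single-gene locus on each side of a member. Alternatives were pseudocounts of 0.1 and 5, median-of-ratios scaling, no low-value filter, separate intervals and 4-fold. Python 3.11.15, numpy 2.4.6 and pandas 2.3.3 were used.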

Additional observations from a re-analysis of the deposited data

How the results depend on the processing

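No paired analysis was possible because each organ has 1 library, and for the same reason no library could be left out. With a pseudocount of 5 FPKM in place of 1, the rows at least 2-fold apart were 2 rather than 5 in flowers over siliques, 3 rather than 5 in siliques over leaves and 1 rather than 4 in siliques over roots, with FLC, MAF5, SVP and SOC1 each under 2-fold in at least 1 of these, as this pseudocount shrinks differences of low genes. Requiring separate intervals left 0 in each of the 6 pairs, an outcome fixed in advance for FLC, MAF3, MAF5 and AGL24, whose intervals all start at 0. At 4-fold, the count was 2 in flowers over siliques, 1 in flowers over roots (3 at 2-fold), 3 in siliques over leaves and 1 in siliques over roots. Median-of-ratios scaling (size factors 1.16 for flowers, 0.955 for siliques, 1.13 for roots and 0.808 for leaves) gave 3 in flowers over leaves rather than 1. It gave 3 in siliques over roots rather than 4, where FLC fell just under 2-fold. The highest organ stayed the same in 5 of the 8 rows, and it changed in FLC, MAF1 and the joined row, whose top organs were nearly level after scaling. Of the 48 single differences, 48 were on the same side of 2-fold with a pseudocount of 0.1, 40 with 5 and 45 after scaling, and none of those past 2-fold changed sign. No filter on low values left the 6 counts as they were, an outcome also fixed in advance. It adds only the second MAF4 row, whose highest level of 0.292 FPKM is too low for a 2-fold call. FLC, MAF5 and AGL24 rest on the fewest fragments, down to about 41.6 for AGL24 in roots.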
